A study of Rattus norvegicus with 30 samples.

Results

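Snai2 was followed in rat bone marrow mesenchymal stem cells (BMSCs) before induction (0 h) and in 3 lineages, namely osteogenesis, adipogenesis and chondrogenesis (abbreviated OS, AD and CH), each sampled 3, 12 and 72 h after induction. The gene was taken by its symbol from the gene names of the 30 samples, in which Snai2 was 1 of 9999 names and stood on 1 line, so that its values are not a sum over several entries. Each of the 10 groups held 3 samples, and the 0 h samples served all 3 lineages. The cells came from the bone marrow of 3 female Sprague Dawley rats 3 weeks old, were used at passage 2, and were induced with commercial differentiation media that differ between the lineages, whereas the 0 h cells had no induction. Every sample pooled 3 cultures, and no cells kept uninduced for 3, 12 or 72 h were used here, so induction and time in culture cannot be told apart. The labels do not say that the 3 samples of a group came from different rats, and the p-values therefore measure only the spread between these samples.

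Snai2 encodes Slug, a zinc finger transcription factor of the Snail family. Slug binds E-box sequences and recruits corepressors that silence its targets, among them genes of epithelial cell junctions, and it is known for its part in epithelial to mesenchymal transition (EMT), in the neural crest and in cells of mesenchymal origin such as marrow stromal cells. Its transcription is known to respond to TGF-β, BMP, Wnt and Notch signalling, and the protein is short lived because ubiquitin ligases mark it for degradation.

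Levels are given as CPM, the reads of a gene scaled to a common library total, which have no gene length in them, so levels are compared between samples and never between genes. The totals behind the values were 3899609 to 9046719 reads per sample (median 6579543), 3 reads were worth 0.332 to 0.769 CPM, and the names analysed held 38.9% to 71.4% of a sample's total. Zeros and very low values need care in these files. Actb, a gene that every cell uses, was listed with 0 to 39 reads per sample and Ppia with 0 to 3, whereas Rplp0 had 12652 to 54519 and B2m 1760 to 7113, and 3405 names (34.1%) had at most 3 reads in every sample. A low value is therefore given only as what is listed. Of the stromal cell markers, Thy1, Cd44 and Itgb1 had at least 1447 reads in every sample, while Eng, Vcam1 and Pdgfra had at most 12. The epithelial markers Epcam, Cdh1, Krt8, Krt18 and Krt19 had at most 4 reads, and the haematopoietic markers Csf1r, Adgre1 and Lyz2 at most 16.

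Among the samples, 3 differed most from the other 2 of their group. Replicate 3 of 72 h AD lay more than 1 log2 unit from the mean of the other 2 in 425 of the 4363 genes tested, replicate 3 of 3 h OS in 366 and replicate 1 of 12 h AD in 299, against 33 to 219 (median 60) in the other 27 samples. Replicate 1 of 12 h AD touches Snai2 most. In this sample 465 genes lay more than 1 log2 unit from the mean of 12 h OS, against 816 and 853 in replicates 2 and 3 of 12 h AD, although all 3 samples were closest to the mean of their own group. Claudin 1 (Cldn1), which was high in OS, stood at 23.0 CPM in this sample and at 0.921 and 3.52 CPM in replicates 2 and 3. The 12 h AD means include this sample, and whether it is a mixed or partly exchanged library was not tested. Snai2 values that rest on it are given with and without it.

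At 0 h the Snai2 level was 7.59, 5.85 and 7.89 CPM in the 3 samples, from 53, 42 and 52 reads. In OS it was 9.40, 8.22 and 5.81 CPM at 3 h and 9.19, 6.73 and 9.14 CPM at 12 h. At 72 h of OS it was 170, 171 and 178 CPM. The 3 h and 12 h samples of OS thus overlapped with 0 h and with each other, and all 3 samples of 72 h lay far above them.

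In AD the Snai2 level was 17.1, 25.2 and 17.7 CPM at 3 h, above every 0 h sample. At 12 h it was 21.6, 65.9 and 82.5 CPM, and replicate 1, the sample that stood apart, overlapped with 3 h. At 72 h it was 257, 257 and 298 CPM, and no sample of another group reached these levels.

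In CH the Snai2 level was 15.4, 18.3 and 16.1 CPM at 3 h, close to 3 h of AD. At 12 h it was 2.60, 3.90 and 4.44 CPM, below every other sample of the series. These rest on 18, 25 and 28 reads, and the 95% exact Poisson interval of the lowest of them, which covers counting error only, was 1.54 to 4.11 CPM. At 72 h it was 99.0, 74.7 and 78.5 CPM. In CH the samples of 3 h thus lay above those of 0 h, the samples of 12 h below them and the samples of 72 h far above, with no overlap between the 4 groups.

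**Figure D1:**
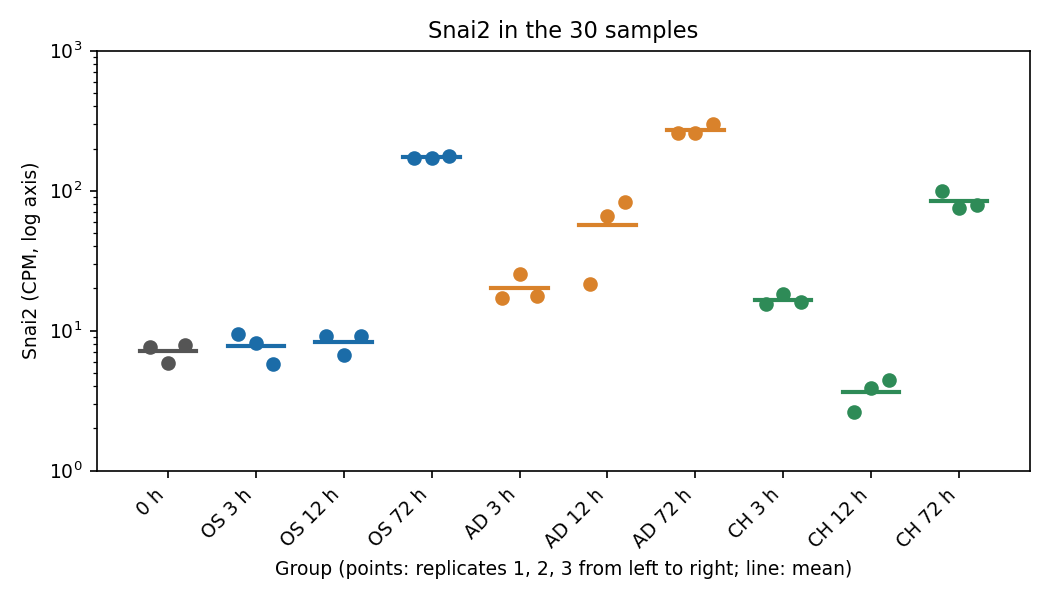
Snai2 level in CPM (log axis) in each of the 30 samples, by lineage and hour, with replicates 1 to 3 from left to right and the group mean as a line. All 9 samples of 72 h lie at 74.7 CPM or more, the samples of 3 h and 12 h OS stay beside 0 h, and the 12 h samples of CH lie lowest.

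The mean level at 0 h was 7.11 ± 1.10 CPM (SD, n = 3). By the mean, the order from lowest to highest was 12 h CH (3.64 ± 0.943 CPM), 0 h, 3 h OS (7.81 ± 1.83), 12 h OS (8.35 ± 1.41), 3 h CH (16.6 ± 1.53), 3 h AD (20.0 ± 4.49), 12 h AD (56.7 ± 31.5), 72 h CH (84.1 ± 13.1), 72 h OS (173 ± 4.21) and 72 h AD (271 ± 23.9 CPM, SD, n = 3 each). Of the 9 pairs of neighbours in this order, 5 had overlapping samples, namely 0 h and 3 h OS, 3 h and 12 h OS, 3 h CH and 3 h AD, 3 h and 12 h AD, and 12 h AD and 72 h CH. In the other 4 pairs the samples did not overlap. Without replicate 1 the mean of 12 h AD was 74.2 CPM, from 65.9 and 82.5 CPM, which keeps its place in the order, overlaps with 72 h CH and no longer overlaps with 3 h AD.

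The first question was when the Snai2 level left that of 0 h in each lineage. It was tested with limma on log2(CPM + 1) across all 4363 genes that passed the filter on low values. A gene was called where the log2 fold change was at least 1 in size and the Benjamini-Hochberg adjusted p under 0.05. Snai2 was called in 6 of the 9 comparisons with 0 h, each time as higher. Since these are bulk samples, a change of level per cell and a change in the share of cells that make the transcript cannot be told apart.

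In OS the difference from 0 h was 0.11 at 3 h (SE 0.28, 95% interval -0.47 to 0.68, limma adjusted p = 0.812), where 18.4% of all tested genes were called (11.7% higher, 6.67% lower), and 0.20 at 12 h (interval -0.37 to 0.78, limma adjusted p = 0.611), where 21.8% were called (14.7% higher, 7.15% lower). Neither difference was larger than the spread between samples, and both changed sign under median-ratio scaling (-0.11 and -0.093). At 72 h the mean was 24.4 times that of 0 h and the log2 fold change 4.43 (SE 0.28, limma adjusted p = 1.18e-13), the 8th highest of the 4363 genes in a comparison that called 12.5% of them (7.20% higher, 5.29% lower). The means of 3 h and 12 h were 4.51% and 4.82% of the 72 h mean.

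In AD the difference was past both thresholds at every time. At 3 h the mean was 2.81 times that of 0 h, with a log2 fold change of 1.36 (SE 0.28, limma adjusted p = 0.000205), the 302nd highest in a comparison that called 18.8% of genes (12.4% higher, 6.42% lower). At 12 h the log2 fold change was 2.64 (SE 0.28, limma adjusted p = 8.25e-09), the 18th highest in a comparison that called 13.7% of genes (8.14% higher, 5.55% lower). Without replicate 1 it was 3.21. At 72 h the mean was 38.1 times that of 0 h and the log2 fold change 5.07 (SE 0.28, limma adjusted p = 3.82e-15), the 7th highest in a comparison that called 15.3% (6.19% higher, 9.08% lower). The mean of 3 h was 7.39% and that of 12 h 20.9% of the 72 h mean (27.4% without replicate 1), so that in AD part of the rise was already present at the earlier times.

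In CH the 3 h mean was 2.34 times that of 0 h, with a log2 fold change of 1.13 (SE 0.28, limma adjusted p = 0.00156), where 18.0% of genes were called (13.1% higher, 4.88% lower). This call sits near the fold threshold and was lost under median-ratio scaling (0.82), quantile normalization (0.90), rescaling to the sum of the names analysed (0.91) and edgeR on the recovered reads (0.87), each with an adjusted p under 0.05. At 12 h the mean was 0.513 times that of 0 h and the log2 difference was -0.82 (SE 0.28, interval -1.39 to -0.24, limma adjusted p = 0.0219), where 14.4% were called (9.44% higher, 218 genes lower). It was not called because the fold was too small, while median-ratio scaling (-1.02), rescaling to the sum of the names analysed (-1.01) and edgeR (-1.23) put it past both thresholds. At 72 h the mean was 11.8 times that of 0 h and the log2 fold change 3.39 (SE 0.28, limma adjusted p = 2.59e-11), the 59th highest in a comparison that called 18.0% (11.6% higher, 6.37% lower). The mean of 3 h was 19.8% and that of 12 h 4.33% of the 72 h mean of CH.

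Between successive time points, Snai2 was called in 5 of 6 comparisons. In OS the step from 3 h to 12 h was 0.10 on the log2 scale (limma adjusted p = 0.871, 7.82% of genes called), and that from 12 h to 72 h was 4.23 (SE 0.28, limma adjusted p = 1.19e-13, 23.2% called), the 14th highest of all genes. In AD the steps were 1.28 from 3 h to 12 h (SE 0.28, limma adjusted p = 0.000656, 12.9% called) and 2.43 from 12 h to 72 h (SE 0.28, limma adjusted p = 2.60e-08, 16.0% called). The second step was 1.86 without replicate 1 of 12 h AD and still called. The first step of AD moved with single samples, being 1.85 without replicate 1 of 12 h and 0.91, below the fold threshold, without replicate 3 of 12 h. Fitted on its 6 samples alone it was not called (limma adjusted p = 0.108). In CH Snai2 fell by 1.94 from 3 h to 12 h (SE 0.28, limma adjusted p = 3.96e-06, 7.68% called), the 56th lowest of all genes, and rose by 4.21 from 12 h to 72 h (SE 0.28, limma adjusted p = 4.87e-13, 13.2% called), the 14th highest.

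**Figure D2:**
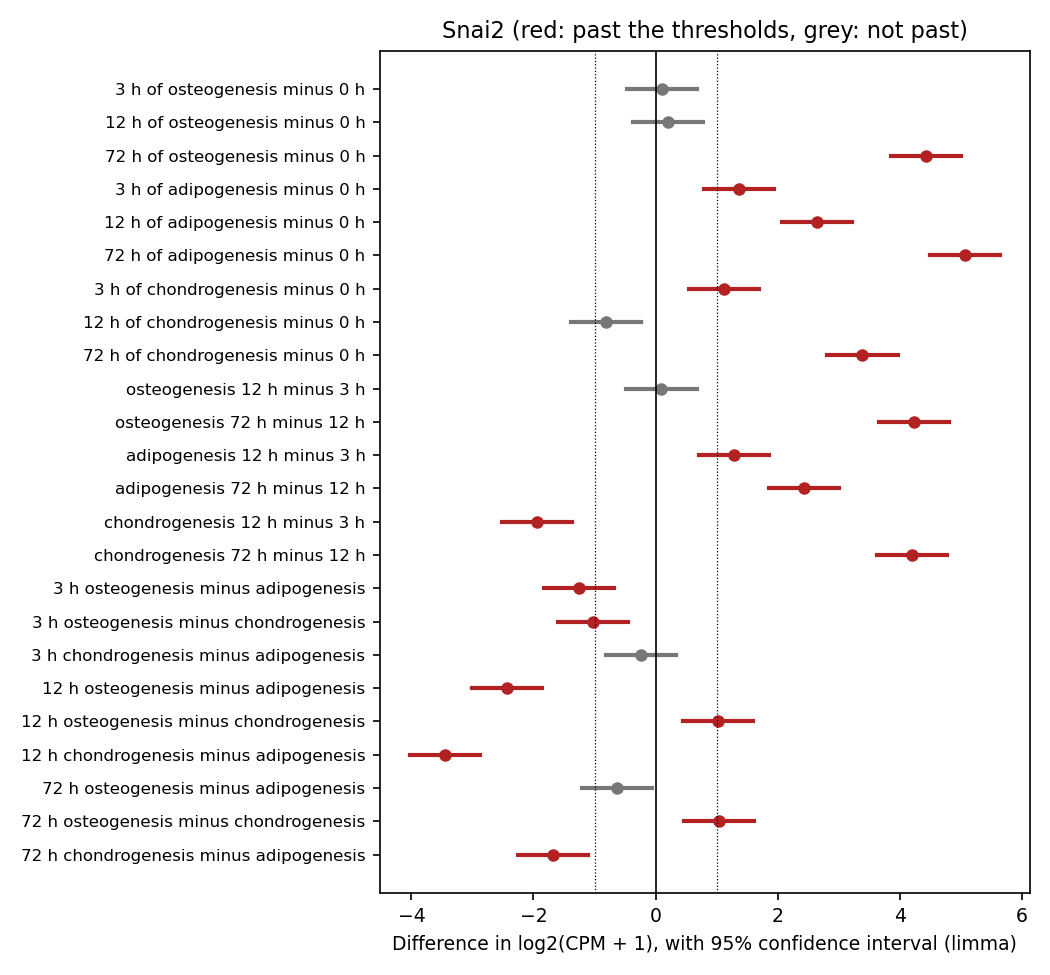
Difference in the Snai2 level on the log2(CPM + 1) scale with its 95% interval from limma, for the 9 comparisons with 0 h, 6 between successive times and 9 between lineages, with dotted lines at a log2 difference of 1 in size. The 72 h comparisons lie at 3.39 to 5.07, and 12 h of CH against 12 h of AD is the largest difference between lineages at -3.46.

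The lineages were then compared with each other at each time, where Snai2 was called in 7 of 9 comparisons. At 3 h the level of OS was below AD by 1.25 (SE 0.28, limma adjusted p = 0.00158, 7.66% of genes called) and below CH by 1.02 (SE 0.28, limma adjusted p = 0.0096, 7.31% called) on the log2 scale. CH and AD differed at 3 h by -0.24 (interval -0.81 to 0.34, limma adjusted p = 0.666, 9.35% called), which is within the spread of the samples.

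At 12 h the level of CH was below AD by 3.46 (SE 0.28, limma adjusted p = 3.22e-11, 13.6% called), the 5th lowest of all tested genes, and the difference was -4.03 without replicate 1 of 12 h AD. OS was below AD by 2.44 (SE 0.28, limma adjusted p = 4.47e-08, 13.2% called), or -3.01 without that sample. OS was above CH by 1.02 (SE 0.28, limma adjusted p = 0.00449, 16.0% called).

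At 72 h the level was highest in AD and lowest in CH. CH was below AD by 1.68 (SE 0.28, limma adjusted p = 9.16e-06, 25.5% called), and OS was above CH by 1.04 (SE 0.28, limma adjusted p = 0.0033, 19.6% called). OS lay below AD by 0.64 (interval -1.21 to -0.06, limma adjusted p = 0.0738, 13.7% called), which was not called although the samples of the 2 groups did not overlap. The calls between OS and CH sit at the fold threshold at all 3 times and were lost under median-ratio scaling, at -0.92 for 3 h, 0.93 for 12 h and 0.92 for 72 h.

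Whether the course over time itself differed between lineages was tested as the difference of the steps, and 5 of 6 such differences were called. From 3 h to 12 h, CH moved 3.22 below AD (SE 0.40, limma adjusted p = 2.95e-07, 14.3% of genes called), OS moved 2.04 above CH (SE 0.40, limma adjusted p = 0.000248, 14.1% called) and OS moved 1.18 below AD (SE 0.40, limma adjusted p = 0.0372, 11.1% called). The last of these was not called in 7 of the 12 fits that leave out 1 sample, and it ran from -1.76 without replicate 1 of 12 h AD to -0.81 without replicate 3 of 12 h AD. From 12 h to 72 h, OS rose by 1.80 more than AD (SE 0.40, limma adjusted p = 0.00116, 14.2% called) and CH by 1.77 more than AD (SE 0.40, limma adjusted p = 0.000919, 19.3% called). The rises of OS and CH over this interval differed by 0.02 (95% interval -0.79 to 0.84, limma adjusted p = 0.972, 22.5% called).

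The other Snail genes were listed at low values. Snai1, which encodes the repressor Snail, had 0 to 24 reads per sample and log2 differences from 0 h of -0.74 to 0.68, and Snai3, the third member of the family, had 0 to 16 reads and differences of -0.13 to 0.94. Neither was called in any of the 9 comparisons by limma, and the unadjusted limma p was under 0.05 in 0 comparisons for Snai1 and in 2 for Snai3, with folds under the threshold. With edgeR, 12 h of OS was called for Snai1 (-2.17) and 3 h of AD for Snai3 (3.11).

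Lists of genes that act with, on or under Slug were described against the same background. The 9 comparisons with 0 h called 6.19% to 14.7% of the tested genes as higher and 4.88% to 9.08% as lower. Where a listed call lies near the fold threshold another scaling can remove it, and of 154 calls of listed and marker genes 21 to 23 were lost under each scaling and edgeR, with 0 changes of sign. Among the 368 differences of these genes that were not called, 14 to 18 became called under each scaling and 34 with edgeR. Of the 20 Snail and EMT transcription factors, 12 were among the names analysed and 8 passed the filter. The 4 below it had at most 8 reads. Besides Snai2, the largest change was that of Sox9, which encodes the transcription factor that drives cartilage formation. Its level was 46.6, 46.8 and 50.8 CPM at 0 h, and 622, 627 and 561 CPM at 3 h, 632, 718 and 564 CPM at 12 h, and 1489, 1256 and 1152 CPM at 72 h of CH. Sox9 thus stayed more than 10 times above 0 h in CH, with no overlap with 0 h, while the Snai2 level of 12 h lay below those of 3 h and 72 h.

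In AD, Sox9 fell by 1.45 at 3 h, by 2.90 at 12 h and by 1.50 at 72 h, and its adjusted p was 1.28e-09 or lower (limma), whereas Snai2 rose at the same times. In OS it was called as higher at 3 h (1.05) and lower at 12 h (-1.37), and the 3 h call was lost under median-ratio scaling (0.81). Foxc2, a forkhead factor of mesenchyme, was called as higher at 3 h of OS (1.75), AD (1.20) and CH (1.62) and at 12 h of OS (1.39). Its 3 h AD call was lost under median-ratio scaling (0.98), and with edgeR it was called as lower at 12 h of AD (-1.15). Zeb1, an EMT repressor, was called as lower at 3 h of AD (-1.21). At 3 h of OS Zeb1 lay just short of the fold threshold (-0.96, limma adjusted p = 0.0392), and median-ratio scaling (-1.10), the rescaled sum (-1.10) and edgeR (-1.85) called it. Gsc, another gene of this list, stood at 12.0, 16.3 and 14.1 CPM at 0 h and at 4.62, 3.76 and 2.45 CPM at 72 h of CH. At 72 h it stood at 19.1, 21.5 and 22.4 CPM in OS and at 20.1, 14.2 and 22.3 CPM in AD. Over the 8 tested genes, Snai2 included, 3 were called as higher and 2 as lower at 3 h of AD, beside 12.4% and 6.42% of all tested genes. In the other comparisons at most 3 of the 8 were called. The median log2 difference of the 8 was -0.23 to 0.81, beside -0.05 to 0.21 over all tested genes.

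Of the 14 corepressors and partners, 10 were among the names analysed and 7 were tested. Called were Ajuba and Limd1, LIM proteins that bind the SNAG domain of Snail factors, whereas limma did not call the histone deacetylases Hdac1, Hdac2 and Hdac3, the corepressor Ctbp2 or the Polycomb subunit Suz12 against 0 h. Of these, 2 lay near the fold threshold. Hdac3 at 72 h of AD (0.91) was called under median-ratio scaling (1.10), the rescaled sum (1.16) and edgeR (1.21), and Suz12 at 72 h of CH (-0.97) under median-ratio scaling (-1.04), quantile normalization (-1.03) and the rescaled sum (-1.06). Ajuba was higher at 3 h of OS (1.17) and CH (1.40) and lower at 12 h (-1.26) and 72 h (-1.04) of AD, where Snai2 was highest. Limd1 was higher at 3 h of OS (1.08) and at 3 h (1.34), 12 h (1.04) and 72 h (1.48) of CH. The 3 h OS calls of both genes were lost without replicate 3 of that group (0.91 and 0.90), and the 72 h AD call of Ajuba without replicate 3 of 72 h AD (-0.76). Under every scaling and with edgeR, both 3 h OS calls, the 72 h AD call of Ajuba (-0.91 to -0.78) and the 12 h CH call of Limd1 (0.64 to 0.81) were lost, and Ajuba became called as lower at 3 h of AD (-0.84 on the deposited CPM, -1.14 to -1.03 in these fits). At 3 h of CH the call of Ajuba was lost with quantile normalization (0.93), and that of Limd1 with quantile normalization (0.86) and edgeR (0.99). Of 12 genes of protein turnover only Gsk3b, the kinase that marks Snail for degradation, and Stub1, a ubiquitin ligase, were tested. Stub1 was called at 3 h (1.002) and 12 h (1.06) of OS and 3 h of CH (1.06), and all 3 calls were lost under median-ratio scaling (0.76, 0.73 and 0.72). Gsk3b was not called by limma on the deposited CPM, but at 3 h of OS (-0.94) it was called as lower under median-ratio scaling (-1.10), the rescaled sum (-1.11) and edgeR (-1.33).

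Of 26 ligands and receptors that are known to act on Snai2, 12 were among the names analysed and 6 were tested. Tgfbr3, which encodes the TGF-β coreceptor betaglycan, stood at 853, 852 and 885 CPM at 0 h. At 72 h it stood at 4240.2, 4081 and 4419.9 CPM in OS and at 5295, 5633 and 5349 CPM in AD, but at 76.4, 66.5 and 79.2 CPM in CH. Tgfbr3 therefore rose with Snai2 at 72 h of OS (2.30, limma adjusted p = 2.03e-17) and AD (2.65, limma adjusted p = 3.91e-19) and fell by 3.53 at 72 h of CH (limma adjusted p = 7.03e-22), where Snai2 had risen. At 12 h it was higher in AD (1.41), as Snai2 was, lower in CH (-2.74) and not called in OS (0.20). At 3 h Tgfbr3 was lower in OS (-1.48), where Snai2 was not called, and in CH (-1.48), where Snai2 was called as higher, and it was not called in AD (0.68). The gene of the ligand, Tgfb1, moved the other way in some groups, with calls of -1.54 at 72 h of AD and 1.84 at 72 h of CH, and a call of 1.06 at 3 h of CH that was lost under median-ratio scaling (0.72). At 3 h (0.95) and 72 h of OS and at 12 h of CH, where Tgfbr3 was called, limma did not call Tgfb1. At 12 h of AD Tgfb1 became called as lower without replicate 1 (-1.08), under median-ratio scaling (-1.13), with quantile normalization (-1.17) and with edgeR (-1.13).

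Notch1, a receptor whose signalling is known to induce Slug, was called at all 3 times of AD (2.10, 1.37 and 2.73) and at 12 h (1.08) and 72 h (1.69) of OS, and fell by 1.22 at 12 h of CH. Its levels at 72 h of AD were 15.8, 16.8 and 50.2 CPM against 3.58, 2.51 and 2.27 CPM at 0 h, with replicate 3 far above the other 2. At 12 h of CH, the group with the least Snai2, Notch1 stood at 0.578, 0.467 and 0.792 CPM. Notch2 was called at 3 h of OS (1.48) and at 3 h (1.11) and 12 h (1.22) of CH, and Notch3 at 72 h of OS (1.21). Median-ratio scaling removed the calls of Notch1 at 12 h of OS (0.81) and of Notch2 in CH (0.77 and 0.98). Of the 6 genes, 3 were called as higher at 72 h of OS, beside 7.20% of all tested genes, and 2 as lower at 12 h of CH, beside 218 of 4363. No other comparison had more of either.

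Of 20 transducers and feedback genes of these pathways, 4 were tested. Id2 and Id3, which encode inhibitors of basic helix-loop-helix factors and respond to BMP signalling, were called as lower at all 3 times of AD (Id2 by -1.03, -1.56 and -1.34, and Id3 by -3.18, -1.78 and -1.36). At 72 h of OS and CH, where Snai2 had also risen, neither was called (Id2 -0.03 and -0.15, Id3 -0.55 and 0.05). Lower levels were called in other groups too. Id2 was called as lower at 3 h (-2.11) and 12 h (-2.62) of OS, where Snai2 was not called, at 3 h of CH (-2.78), where Snai2 was called as higher, and at 12 h of CH (-3.30), where Snai2 was lowest. Id3 was called as lower at 12 h of OS (-1.39) and at 3 h (-3.02) and 12 h (-1.33) of CH. At 3 h of OS Id3 (-0.94, limma adjusted p = 0.000249) was below the fold threshold, and it was called under every scaling, with edgeR and without replicate 3 of 3 h OS (-1.27 to -1.14). Id2 stood at 41.3, 43.0 and 37.0 CPM at 0 h, at 5.57, 6.73 and 5.03 CPM at 12 h of OS and at 19.9, 19.4 and 18.6 CPM at 3 h of AD. Axin2, a feedback gene of Wnt signalling, was lower at all 3 times of AD (-1.01, -1.29 and -1.20), from 9 to 20 reads per sample at 0 h. The 3 tested genes that were lower at each time of AD stand against 6.42%, 5.55% and 9.08% of all tested genes, and the list's median was -1.02, -1.42 and -1.27. The 72 h call of Id3 was lost with quantile normalization (-0.99), which leaves 2 of the 3. At 3 h and 12 h of OS and 3 h of CH, 1, 2 and 2 of the 4 were lower, beside 6.67%, 7.15% and 4.88% of all tested genes, and at 12 h of CH 2 of the 4, beside 218 of 4363 genes. The remaining gene, Lef1, a transcription factor of Wnt signalling, had 14, 11 and 19 reads at 3 h of CH against 1, 1 and 4 at 0 h. It passed the filter on low values only through that group, so its higher level there is a description and the medians of the list include it.

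The genes that Snail factors are known to repress in epithelial cells were described next, because Slug is known to bind E-boxes in such promoters. That motif, CACCTG, or CAGGTG when read on the other strand, was searched on both strands in the 250 bases before the annotated start in RefSeq promoters of assembly GRCr8. It was in 5323 of 33469 promoters (15.9%). Of the 20 genes of the list 12 had such a window, and 9 of these held the motif, while Cldn1, Tjp1 and Krt18 did not. A match is a description of the letters and not a site at which Slug was measured. Shown are the windows around each match of Dsp and Muc1, the listed genes that both held the motif and were called in a comparison with 0 h, written 5′ to 3′ on the strand of the gene with the motif in capitals.
Dsp, chr17:26877171-26877236, minus strand: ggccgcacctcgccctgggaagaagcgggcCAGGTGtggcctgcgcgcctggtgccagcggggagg
Muc1, nearer match, chr2:176933648-176933713, plus strand: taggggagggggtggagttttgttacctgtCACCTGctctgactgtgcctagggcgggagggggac
Muc1, farther match, chr2:176933500-176933553, plus strand: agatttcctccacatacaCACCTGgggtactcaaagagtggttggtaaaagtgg
The motif begins 85 bases before the start of Dsp, and 72 and 232 bases before that of Muc1.

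Of the 20 epithelial genes, 14 were among the names analysed and 5 passed the filter. Dsp, which encodes the desmosomal protein desmoplakin, was at 2.72, 1.11 and 0.607 CPM at 0 h. It was called as higher at 3 h (1.16) and 12 h (2.64) of OS, 3 h of AD (2.11), and 3 h (1.90) and 12 h (1.30) of CH, of which the 3 h OS call was lost with the rescaled sum (0.99) and with edgeR (adjusted p = 0.0719). In the 72 h groups, in which Snai2 was high, Dsp was at 0.298, 0 and 0.452 CPM in OS, 0.89, 0 and 0.158 CPM in AD and 0.769, 0.663 and 0.222 CPM in CH, and its differences from 0 h were not called by limma (-0.92, -0.84 and -0.60). At 72 h of OS median-ratio scaling (-1.01) and edgeR (-2.63) put it past both thresholds. The 0 h levels of Dsp left little room for a fall of 1 on the log2(CPM + 1) scale.

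Cldn1, a tight junction gene with no CACCTG in its window, was at 0.859, 0.139 and 0 CPM at 0 h. In OS it was at 2.82, 2.37 and 3.04 CPM at 3 h, 32.4, 36.5 and 32.4 CPM at 12 h and 49.1, 36.8 and 36.9 CPM at 72 h. Cldn1 was called at all times of OS (1.54, 4.76 and 5.02) and AD (1.46, 2.21 and 1.94) and at 3 h (1.47) and 12 h (1.98) of CH. At 12 h of AD Cldn1 was at 23.0 CPM in replicate 1 and at 0.921 and 3.52 CPM in the other 2, and without replicate 1 its difference was 1.20 and still called (limma adjusted p = 0.0128). Its difference at 72 h of CH (1.21, limma adjusted p = 0.0557) was called under median-ratio scaling (1.27). It was thus high at 72 h of OS together with Snai2. Muc1, a mucin of epithelial surfaces, was called at 72 h of CH (1.13), from 6 to 12 reads per sample, and Cdh3, a cadherin, at 3 h (1.66) and 12 h (1.06) of CH. Esrp2, an epithelial splicing factor, was higher at 12 h of OS (1.19), 12 h (1.02) and 72 h (1.39) of CH and lower at 72 h of AD (-1.10). Median-ratio scaling and the rescaled sum removed the calls of Esrp2 at 12 h of OS (0.95 and 0.92) and 12 h of CH (0.86 and 0.86) and that of Cdh3 at 12 h of CH (0.99 and 0.99), quantile normalization that of Esrp2 at 12 h of CH (0.99), and edgeR did not call Muc1 (adjusted p = 0.0549). Cdh3 at 12 h of OS (0.97) became called with quantile normalization (1.05) and edgeR (2.31), and with edgeR also Cdh3 at 3 h of OS (2.05) and Esrp2 at 3 h of AD (-1.68). On the deposited CPM the only call of a lower level in this list was that of Esrp2 at 72 h of AD. Cldn1 and Cdh3 (0.286, 0.139 and 0.152 CPM at 0 h) began too low for a fall of 1 on the log2(CPM + 1) scale, even to 0 reads. The lack of calls of a lower level therefore says little about these genes.

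Of the 20 mesenchymal and migration genes, 7 were tested, and Vim was listed at a mean of at most 1.02 CPM and was not called in any comparison with 0 h by limma. Cdh11, the cadherin of osteoblasts and mesenchyme, was called at 12 h of AD (1.71) and at 12 h (1.34) and 72 h (2.01) of CH. Mmp2, which encodes a gelatinase, was lower at 3 h (-1.23) and 12 h (-1.74) of OS and at 3 h of AD (-1.09) and CH (-1.28), and the 3 h calls were lost under quantile normalization, while 12 h of CH became called under median-ratio scaling (-1.21), the rescaled sum (-1.20) and edgeR (-1.22). S100a4 was lower at 72 h of AD (-1.997) and CH (-2.90). Tagln, an actin-binding protein of contractile cells, was higher at 3 h of all lineages (2.17, 1.64 and 2.28 for OS, AD and CH) and at 12 h of CH (2.34). At 72 h of AD, where Snai2 was highest, 3 of the 7 genes were called as lower, beside 9.08% of all tested genes, and the median of the 7, which was the value of Cd44, was -0.998. These 3 were S100a4, Tagln (-1.11) and Itgb1 (-1.03), and the call of Itgb1 was lost without replicate 3 of 72 h AD (-0.94), with quantile normalization (-0.65) and with edgeR (-0.93). Median-ratio scaling and the rescaled sum removed the calls of both Itgb1 (-0.84 and -0.77) and Tagln (-0.96 and -0.90), which left S100a4 of the 3. Cd44, which encodes the hyaluronan receptor of stromal cells, was below the fold threshold there and became called without replicate 3 (-1.08). Cd44 was called as higher at 3 h (1.49) and 12 h (1.003) of OS and at 3 h of AD (1.03), and the last 2 of these calls were lost under every scaling and with edgeR (0.55 to 0.67 and 0.75 to 0.83). At 72 h of OS Cd44 (-0.99) and Tagln (-0.94) were not called on the deposited CPM and became called as lower under every scaling and with edgeR.

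**Figure D3:**
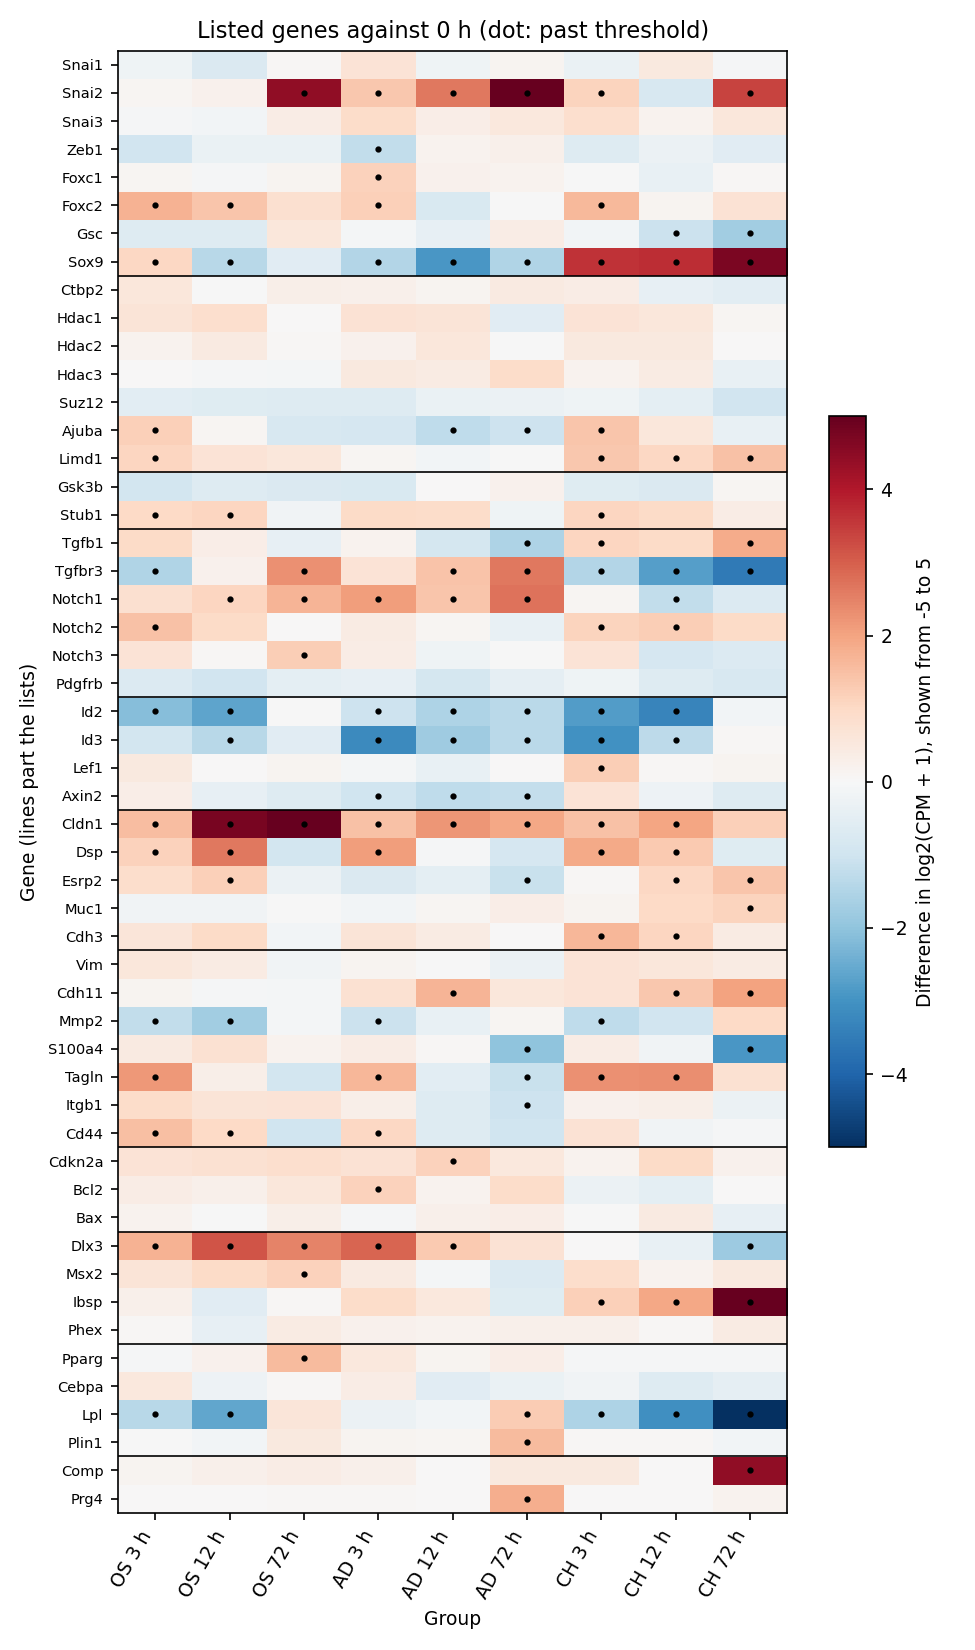
Log2(CPM + 1) difference from 0 h (colour, -5 to 5) for the tested genes of the 11 lists, separated by lines, in the 9 comparisons, with a dot where limma called the gene. For a gene that passed the filter through 1 group alone, a dot in that group follows from the filter and is no test. Snai2 is deep red at 72 h in all lineages, Sox9 is red only in CH and at 3 h of OS, and Tgfbr3 is red at 72 h of OS and AD and blue in CH.

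Lineage genes were read beside Snai2. In OS, Dlx3, a homeobox gene of osteoblasts, rose at 3 h (1.73), 12 h (3.13) and 72 h (2.48). Msx2, another homeobox gene of bone, was called at 72 h of OS (1.14). At 3 h, 12 h and 72 h of OS, 1, 1 and 2 of the 4 were thus higher, beside 11.7%, 14.7% and 7.20% of all tested genes. The other 2, Ibsp and Phex, were not called in OS by limma, and with edgeR both were lower at 12 h (-1.25 and -4.40). In AD, Dlx3 was also higher at 3 h (2.93), and its 12 h call (1.29) was lost without replicate 1 (0.62). At 72 h of CH Dlx3 was lower (-1.80), at 6.92, 7.30 and 9.34 CPM against 27.9, 29.4 and 31.7 CPM at 0 h. Lpl, the lipoprotein lipase of adipocytes, was at 1160.4, 1387 and 3216 CPM at 72 h of AD against 721, 663 and 777 CPM at 0 h, and its call (1.27) was lost without replicate 3 (0.82). Cebpa, also of the adipogenic list, was not called in AD (-0.58 at 12 h and -0.33 at 72 h). Lpl fell by 1.54, 3.05 and 5.59 at 3 h, 12 h and 72 h of CH, and by 1.40 and 2.60 at 3 h and 12 h of OS. Ibsp, a bone matrix protein, rose at 3 h (1.20), 12 h (1.93) and 72 h (6.10) of CH, of which the 3 h call was lost under median-ratio scaling (0.92).

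Of the 58 listed and marker genes tested, 6 passed the filter on low values only through the 1 group in which they were high, so that their difference there follows from the filter and their levels are given as a description with no test. Among them, Comp, a cartilage matrix protein, stood at 25.1, 20.3 and 19.3 CPM at 72 h of CH and at most at 0.881 CPM in every other sample. Plin1, a lipid droplet protein, had 12, 8 and 22 reads at 72 h of AD and at most 6 in another sample. Pparg, which encodes the master regulator of adipocytes, had 15, 16 and 12 reads at 72 h of OS and at most 7 elsewhere, AD included. Prg4, which encodes the joint lubricant lubricin, had 8, 11 and 33 reads at 72 h of AD and at most 2 elsewhere, 72 h of CH included. The other 2 were Lef1, described above, and the macrophage marker Lyz2, with 8, 7 and 13 reads at 72 h of AD and at most 8 elsewhere.

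Markers of other cells moved with some of these groups. The summed level of the stromal markers was 16085 to 16892 CPM at 0 h. In OS it was 21323 to 23217 CPM at 3 h, 18752 to 18937 CPM at 12 h and 15633 to 17096 CPM at 72 h, which overlaps with 0 h. In CH it was 15475 to 17048, 12783 to 16599 and 9106 to 9584 CPM at 3 h, 12 h and 72 h. In AD it was 16532 to 17829, 9411 to 12495 and 4112 to 4779 CPM at these times. Thy1 had fallen by 4.24 on the log2 scale at 72 h of AD and by 1.12 at 72 h of OS, where quantile normalization removed the call (-0.89). The summed level of 5 smooth muscle and pericyte markers was 122 to 135 CPM at 0 h. At 3 h, 12 h and 72 h it was 552 to 622, 231 to 235 and 86.3 to 95.7 CPM in OS. In AD it was 388 to 402, 31.9 to 62.2 and 9.93 to 13.0 CPM, and in CH 699 to 710, 553 to 584 and 155 to 165 CPM. Acta2 had 1 read at most. The sum joins genes that moved apart. At 72 h of OS Cnn1 was at 1.79, 1.25 and 1.21 CPM against 87.1, 88.7 and 88.0 CPM at 0 h. Cspg4 was at 81.0, 81.3 and 86.6 CPM there against 23.3, 30.6 and 28.8 CPM at 0 h. Of 6 endothelial markers, 3 were among the names analysed and 2 were tested, and their summed level was 3.34 to 4.74 CPM at 0 h, 5.46 to 7.08 CPM at 72 h of OS and at most 6.84 CPM in the other groups. Tek, an endothelial receptor kinase, was called as higher at 3 h (1.33) and 72 h (2.12) of OS and 3 h of AD (1.68), with 21 to 37 reads at 72 h of OS against 0 to 6 at 0 h, and Vwf, which encodes von Willebrand factor, as lower at 12 h of OS (-1.68), AD (-1.23) and CH (-1.09). At 72 h of AD Tek (0.85) became called without replicate 3 (1.46) and with edgeR (2.34). The haematopoietic markers summed to 2.38 to 4.08 CPM at 72 h of AD and to at most 1.55 CPM in the other groups, and the epithelial markers to at most 0.663 CPM in any sample. The part of these differences in the Snai2 levels was not tested.

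Finally, the genes with the course most like that of Snai2 were taken by Pearson's correlation over the 10 group means of log2(CPM + 1), among 1080 genes whose means spanned at least 2 log2 units. This is a description over 10 means that share the depth of their samples, and it carries no p. Among the 5 highest were Zfp503 (0.956), Efcab1 (0.954), Wdr86 (0.936) and Peli2 (0.916), and 32 genes were above 0.8. These genes were picked for a course like that of Snai2, so their higher levels at 72 h follow from the choice and are no separate result. Zfp503, which encodes a zinc finger protein, stood at 96.8 ± 8.64 CPM at 0 h, 288 ± 22.1 at 72 h of OS, 311 ± 60.4 at 72 h of AD and 179 ± 20.5 CPM at 72 h of CH (SD, n = 3 each). Efcab1 and Wdr86 were low at 0 h, with mean log2(CPM + 1) of 0.41 and 0.23. At 72 h of OS, AD and CH the means were 3.73, 4.35 and 3.10 for Efcab1 and 1.78, 3.11 and 2.07 for Wdr86. Peli2, an E3 ubiquitin ligase of innate immune signalling, was 4.08 above 0 h at 72 h of AD and, unlike Snai2, 1.47 below 0 h at 3 h and 12 h of OS.

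In replicate 1 of 12 h AD these genes were low as Snai2 was. Peli2 was at 1.90 CPM there and at 12.2 and 12.0 CPM in replicates 2 and 3, and Zfp503 at 117 against 157 and 160 CPM. The 5 lowest correlations were those of Ctsz (-0.931), Stx11 (-0.883), Galnt14 (-0.877), Pkm (-0.872) and Ptprq (-0.872), and 27 genes were below -0.8. Ctsz, the lysosomal protease cathepsin Z, was at 112 ± 6.46 CPM at 0 h, 43.9 ± 1.95 at 72 h of OS and 33.2 ± 19.5 CPM at 72 h of AD (SD, n = 3 each), and at 151 CPM in replicate 1 of 12 h AD against 78.1 and 63.1 CPM in the other 2. Stx11 (11.1 against 7.73 and 6.29 CPM) and Galnt14 (9.36 against 3.87 and 6.48 CPM) were also higher in that sample. Pkm (7.90 against 11.2 and 5.92 CPM) and Ptprq (6.29 against 6.45 and 5.55 CPM) lay between the other 2.

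**Figure D4:**
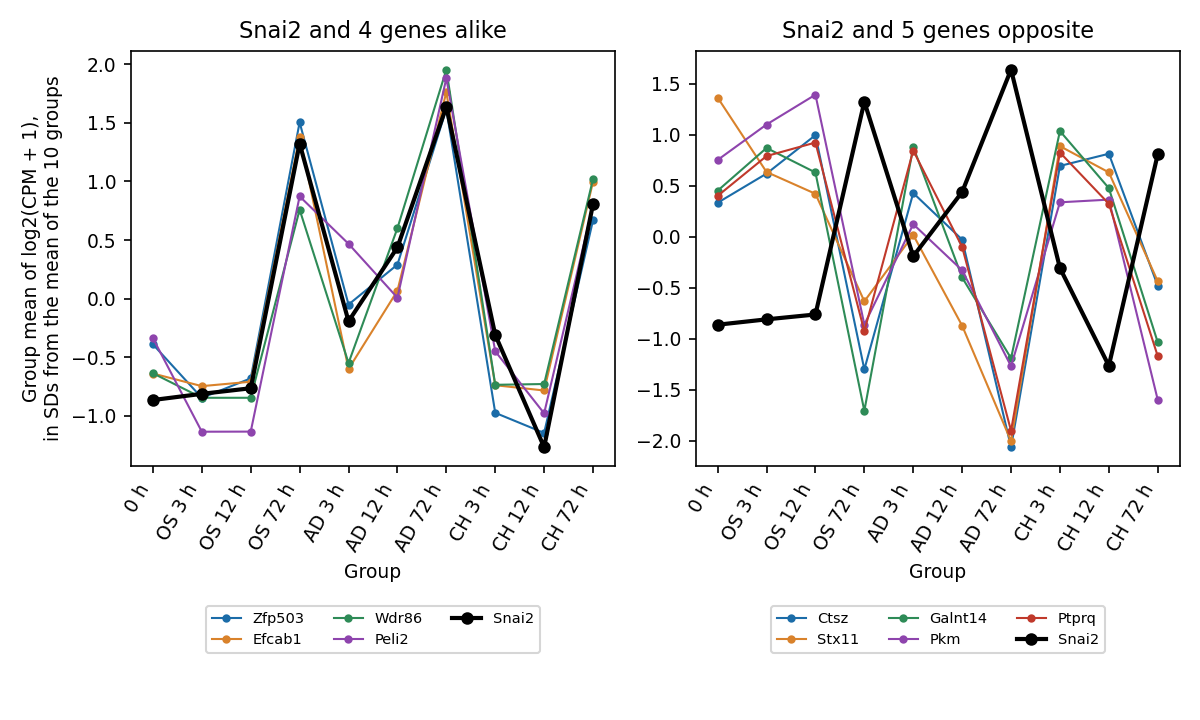
Group means of log2(CPM + 1), centred and divided by the SD of the 10 means of each gene, for Snai2 (black) with 4 of the 5 genes most like it (left) and the 5 most opposite (right). The genes were picked by this correlation. The like genes therefore rise with Snai2 at 72 h of all lineages, and the opposite genes fall there, with Pearson's r of 0.916 to 0.956 and of -0.931 to -0.872.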

How the data were processed

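RNA was measured in 30 samples (10 groups of 3). By the study's methods the libraries were of mRNA, while the labels mention removal of ribosomal RNA. Per the labels, Trimmomatic, HISAT2 and StringTie were used, and versions, genome build and annotation are not given in the sources used here. The values that the authors deposited are named FPKM. Within each sample 100% of the deposited values were whole multiples of 1 step (within 0.02 read), so they are CPM, and the step gave the reads and the total. limma, foreseen for FPKM, was used on CPM too.

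Of 10803 lines, those sharing 1 of 729 repeated names were summed, which left 9999 names. Tested were the 4363 names that reached 1 CPM in 3 or more samples, with the lmFit, contrasts.fit and eBayes (trend) functions of limma 3.58.1 under R 4.3.3, pseudocount 1, 1 model of 10 groups and no covariates. Adjusted p-values follow Benjamini and Hochberg over all tested genes. A fold change on the log2(CPM + 1) scale understates that of low genes. edgeR 4.0.16 (quasi-likelihood test) was run on the recovered reads. Other alternatives were median-ratio scaling, quantile normalization, rescaling to the sum of the names analysed, a pseudocount of 0.1, all names without a filter, a fit on the compared groups only, a replicate block, and each replicate left out in turn. The list values without the 3 samples that stood apart, and the correlations without replicate 1 of 12 h AD, were added after seeing the data. The fits were tested on simulated data. Named were Snai2, at most 4 called members per list and comparison by the size of the change, and the 5 genes most and least correlated with Snai2. Of these, 1 gene is not reported here. Uncalled members, reference genes and markers were named after their values were seen. Snai2 and the lists were chosen with earlier results of these data known. Figures were drawn with Python 3.11.15 and matplotlib 3.10.9.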

Additional observations from a re-analysis of the deposited data

Results flagged for a closer look

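The change of Snai2 over time differed between lineages by a test of the difference itself in 5 cases, all on the log2(CPM + 1) scale with limma. Between 3 h and 12 h the change in OS minus that in AD was -1.18, the change in OS minus that in CH was 2.04, and the change in CH minus that in AD was -3.22. Between 12 h and 72 h the change in OS minus that in AD was 1.80, and the change in CH minus that in AD was 1.77. With replicate 1 of 12 h AD left out, the 4 of these that involve AD were larger in size (-1.76 and -3.79 for 3 h to 12 h, 2.37 and 2.35 for 12 h to 72 h). The first of the 5, OS minus AD from 3 h to 12 h, was the least stable. It was not called in 7 of the 12 fits that leave out 1 sample, being -0.81 without replicate 3 of 12 h AD, while each of the other 4 stayed called in all 12.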

How the results depend on the processing

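Over 30 Snai2 differences and 456 alternative fits, 404 kept the direction and the side of the thresholds. The values of the rest follow, on the log2 scale. Differences near 0 changed sign. For OS against 0 h, median-ratio scaling, rescaling to the sum of the names analysed and edgeR gave -0.11, -0.13 and -0.11 at 3 h and -0.093, -0.12 and -0.17 at 12 h. The step from 3 h to 12 h of OS was -0.055 with edgeR, and the rise of OS minus that of CH from 12 h to 72 h was -0.14 with a pseudocount of 0.1, -0.0012 with median-ratio scaling and -0.092 with edgeR. Calls at the fold threshold were lost or gained. CH against 0 h was no longer called at 3 h with quantile normalization (0.90), median-ratio scaling (0.82), the rescaled sum (0.91) and edgeR (0.87), and became called at 12 h with median-ratio scaling (-1.02), the rescaled sum (-1.01) and edgeR (-1.23). OS against CH was lost at 3 h with quantile normalization (-0.83), median-ratio scaling (-0.92) and edgeR (-0.98), at 12 h with quantile normalization (0.94), median-ratio scaling (0.93) and the rescaled sum (0.89), and at 72 h with median-ratio scaling (0.92) and edgeR (0.97). OS against AD at 72 h became called with quantile normalization (-1.03). For OS minus AD from 3 h to 12 h, the call was lost with a pseudocount of 0.1 (-1.20, adjusted p = 0.0528), no filter (-1.18, adjusted p = 0.0841) and only the groups compared (-1.18, adjusted p = 0.209), and the AD step from 3 h to 12 h was lost with only the groups compared (1.28, adjusted p = 0.108). Median-ratio scaling moved the median of all genes against 0 h by -0.26 to 0.17. The cause was not tested.

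Leaving out each replicate in turn changed no call other than those named here. The ranges were -0.024 to 0.28 for 3 h OS against 0 h, -0.078 to 0.23 for the OS step from 3 h to 12 h, 0.91 to 1.85 for the AD step from 3 h to 12 h, -1.15 to -0.84 for OS against CH at 3 h, 0.85 to 1.15 at 12 h and 0.97 to 1.17 at 72 h, -1.76 to -0.81 for OS minus AD from 3 h to 12 h, and -0.11 to 0.20 for OS minus CH from 12 h to 72 h. The call of OS against CH rested on replicate 3 of OS or 2 of CH at 3 h, replicate 1 or 3 of OS or 1 of CH at 12 h, and replicate 2 of CH at 72 h.

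The replicate block changed no call (the step of AD from 3 h to 12 h stayed at 1.28). The numbers do not pair the samples, since deviations from the group means of same-numbered samples had median correlations of -0.012, -0.011 and -0.002 over 45 pairs each, and 3 of 30 samples correlated best with their own number. Of 154 calls of listed and marker genes against 0 h, 21 to 23 were lost under each of the scalings and edgeR, and 0 changed sign, while of 368 differences not called 14 to 18 became called under each scaling and 34 with edgeR. Summed over the lists without the markers, the calls rose from 138 to 167 with a pseudocount of 0.1. Low reads limited Snai2 at 12 h of CH (18 to 28 reads), Snai1 and Snai3.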
